A study of Rattus norvegicus with 8 samples.

Results

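Genes of innate immunity and of leukocytes were followed in the medial prefrontal cortex of adult rats that had received fluoxetine as juveniles. Tollip, Casp4, Cd52, Gimap5, Rel, Ppbp, Cxcr2 and Ripk4 were taken because each has a probe in the authors' lists of higher and lower genes, which hold 582 probes, or 3.83% of the 15207 on the array. Each gene has 1 listed probe, so the 8 genes are 8 of those 582 probes, 3 from the list of 322 higher probes and 5 from the list of 260 lower probes. The lists rest on the same arrays and the same contrast described below. The differences of these genes are therefore the values by which they were picked, and they are given as a description.

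The treated group, JFLX, consisted of 4 samples from rats dosed with 10 mg/kg of fluoxetine, an antidepressant that blocks the reuptake of serotonin, between postnatal days 28 and 48. The control group consisted of 4 samples from rats given the vehicle, a 5% sucrose solution, over the same days, and whole medial prefrontal cortex was taken from both groups at 6 months of age. For control replicates 2 to 4 the free text names fluoxetine, but their titles and source names say control, and the titles were followed. Neither strain, sex nor the number of animals per sample is given in the labels, and the p-values thus cover the spread among these samples alone. RNA was labelled with a single dye and hybridised to 8 positions of 1 slide, with the groups in separate blocks of positions, so that slide position and treatment cannot be told apart.

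Toll-like and interleukin-1 receptors of the innate immune system signal through adaptors and kinases to transcription factors of the NF-kappa-B family, and Tollip is an adaptor that restrains this pathway. Inflammatory caspases, of which Casp4 is the rodent caspase also called caspase 11, respond in the mouse to bacterial lipopolysaccharide inside the cell and cut gasdermin D. Chemokines such as Ppbp, which is stored in platelets, attract neutrophils through the receptor Cxcr2. In brain tissue such transcripts can come from microglia, neurons, vessel cells or blood left in the vessels. In bulk tissue, fewer cells of a type and less RNA per cell cannot be told apart.

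Every value below is the reading of 1 probe, an oligonucleotide of 60 bases, so the 8 probe sequences are shown as the authors' table gives them, in lower case throughout.
Tollip: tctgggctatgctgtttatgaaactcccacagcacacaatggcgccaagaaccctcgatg
Casp4: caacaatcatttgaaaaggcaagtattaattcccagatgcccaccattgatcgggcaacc
Cd52: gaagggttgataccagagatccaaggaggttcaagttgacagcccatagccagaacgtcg
Gimap5: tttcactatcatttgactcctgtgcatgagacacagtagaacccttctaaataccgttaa
Rel: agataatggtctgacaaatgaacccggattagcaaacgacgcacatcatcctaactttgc
Ppbp: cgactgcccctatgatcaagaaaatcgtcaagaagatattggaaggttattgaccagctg
Cxcr2: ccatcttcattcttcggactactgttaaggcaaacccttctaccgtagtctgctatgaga
Ripk4: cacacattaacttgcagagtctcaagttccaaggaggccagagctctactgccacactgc

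The GC content of these probes ran from 38.3% for Gimap5 to 51.7% for Tollip, Cd52 and Ripk4. Both lists of the authors had a median of 45.0%. The Gimap5 probe holds a stop codon in every reading frame of the printed strand, whereas the other 7 have at least 1 frame without one. No listed probe of another gene shares any of the 8 sequences. The authors' table places the Tollip probe at chr1:202179385-202179444, Casp4 at chr8:2075044-2075103, Cd52 at chr5:152853062-152853121 and Gimap5 at chr4:77119262-77119321. Rel lies at chr14:104664941-104665000, Ppbp at chr14:18816439-18816498, Cxcr2 at chr9:73623639-73623698 and Ripk4 at chr11:37826584-37826643. Tollip, Cd52, Rel, Ppbp and Ripk4 are written there with the larger coordinate first and the other 3 with the smaller first, and no genome build is named for them in the sources at hand. The exon or untranslated region that each probe meets was not analysed here. Ppbp stands in the file under the older name Cxcl7 and Cxcr2 under Il8rb, and all 8 gene IDs matched a RefSeq gene on the same chromosome of the assembly GRCr8.

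Tollip, the adaptor that binds the interleukin-1 receptor-associated kinases and holds them inactive, had the highest JFLX values of the 8 genes relative to its control arrays. Deposited log2 values are relative to the control median of each probe. Those of Tollip were 0.13, 0.24, -0.28 and -0.13 on control replicates 1 to 4. On JFLX replicates 1 to 4 they were 1.12, 1.21, 1.35 and 0.93. The groups did not overlap, and 0.69 log2 units lay between the highest control and the lowest JFLX array. The mean was -0.01 ± 0.24 in control and 1.15 ± 0.17 in JFLX (SD, n = 4 each), a difference of 1.16 ± 0.15 (moderated SE), or 2.24-fold. On the array as a whole, 7.05% of probes had a larger positive difference.

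Casp4 was higher in JFLX on average, but its groups overlapped. Its log2 values were -0.65, 0.26, -0.11 and 0.11 on the control arrays and 0.67, 0.30, 0.86 and 0.22 on the JFLX arrays. JFLX replicate 4 lay below control replicate 2, and control replicate 1 was the lowest array. The means were -0.10 ± 0.40 and 0.51 ± 0.30 (SD, n = 4), a difference of 0.61 ± 0.23 (SE), or 1.53-fold. Of the 8 genes, Casp4 stood closest to the authors' limit on p, at 0.0496 in the authors' deposited table.

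Cd52, a short surface glycoprotein of mature lymphocytes that is also made by other leukocytes, had a similar overlap. The control arrays gave log2 values of 0.50, -0.10, -0.37 and 0.10, and the JFLX arrays gave 0.58, 0.44, 0.41 and 0.72. Control replicate 1 lay above JFLX replicates 2 and 3. The means were 0.03 ± 0.37 and 0.53 ± 0.14 (SD, n = 4), a difference of 0.50 ± 0.19 (SE), or 1.42-fold. On the array, 13.3% of probes had a larger positive difference than Casp4 and 15.5% a larger one than Cd52.

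Gimap5, a small GTPase of the immunity-associated protein family that T lymphocytes of the rat need to survive, was the single lower gene detected on all 8 arrays. Its log2 values were -0.43, 0.03, -0.01 and 0.01 in control and -0.52, -0.29, -0.57 and -0.43 in JFLX. Control replicate 1 fell among the JFLX arrays, and the other 3 control arrays lay close to 0. The means were -0.10 ± 0.22 and -0.45 ± 0.12 (SD, n = 4), a difference of -0.35 ± 0.14 (SE), or 1.28-fold lower. The authors' rule reads the JFLX mean against the control median, which gave -0.45 and passed their limit of -0.4, whereas the difference between the group means did not reach that size. The array entry is for transcript variant 2 of Gimap5.

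**Figure D1:**
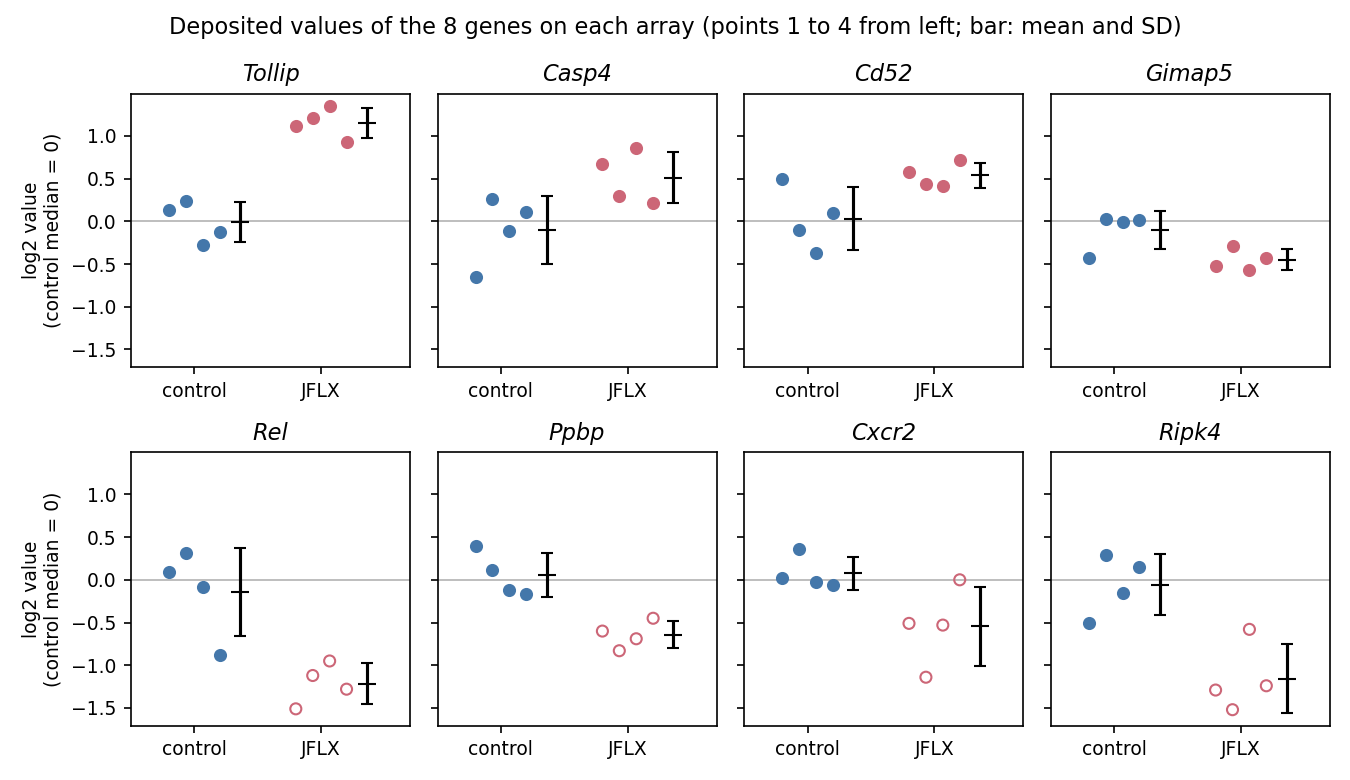
Deposited log2 values (vertical axis, control median 0) of the 8 genes on the 4 control arrays (blue) and the 4 JFLX arrays (red), in order of replicate from left to right, with the group mean and SD as a black bar. Open circles mark a group in which the authors' table counts 0 arrays as detected, and the groups are apart in Tollip, Rel, Ppbp and Ripk4.

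For the other 4 genes the authors' deposited table counts 0 JFLX arrays as detected, against 4 control arrays for Rel, Ppbp and Ripk4 and 3 for Cxcr2. Their JFLX values are therefore not well above background, and no fold is given for any of them. The mean control signal of each was set against a bound. It came from the lowest JFLX signals of listed probes detected on all 4 JFLX arrays. A constant of -0.18 log2 units between intensities and deposited values was then added. With it, the control mean of none of these genes exceeded the bound. Ppbp came closest, at -0.06 log2 units, and its control mean exceeded the bound before the constant was added. In the authors' list of lower probes as a whole, 117 of 260 probes, or 45.0%, were likewise detected on 0 JFLX arrays, and 4 of the 5 lower genes described here are among them. Tollip, Casp4 and Cd52 were detected on all 8 arrays, as were 308 of the 322 probes of the higher list.

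Rel encodes c-Rel, an NF-kappa-B subunit of lymphocytes and other cells. Its log2 values were 0.09, 0.31, -0.09 and -0.88 on the control arrays and -1.51, -1.12, -0.95 and -1.28 on the JFLX arrays. The groups did not overlap, but only 0.07 log2 units separated control replicate 4 from JFLX replicate 3. The measured means were -0.14 ± 0.52 and -1.22 ± 0.24 (SD, n = 4).

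Ppbp and Cxcr2 are a ligand and its receptor. Ppbp, the platelet protein from which the neutrophil-attracting peptide is cut, had log2 values of 0.40, 0.12, -0.12 and -0.17 in control and -0.60, -0.83, -0.69 and -0.45 in JFLX. The groups stood 0.28 log2 units apart, with measured means of 0.06 ± 0.26 and -0.64 ± 0.16 (SD, n = 4). Cxcr2 had log2 values of 0.02, 0.36, -0.02 and -0.06 in control and -0.51, -1.14, -0.53 and 0.00 in JFLX. Here JFLX replicate 4 lay within the control arrays and JFLX replicate 2 lay lowest, and the measured means were 0.07 ± 0.19 and -0.55 ± 0.46 (SD, n = 4). The largest spread within JFLX among the 8 genes was that of Cxcr2.

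Ripk4 is a receptor-interacting kinase known mainly for its part in the differentiation of skin epithelium, and less as a gene of leukocytes. Its log2 values were -0.51, 0.29, -0.15 and 0.15 in control and -1.29, -1.52, -0.58 and -1.24 in JFLX. The groups were 0.06 log2 units apart, between control replicate 1 and JFLX replicate 3. The measured means were -0.06 ± 0.35 and -1.16 ± 0.40 (SD, n = 4).

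The intensities of the authors' deposited table gave the signal behind these values. They are taken here as background-subtracted and as they stood before the arrays were scaled to each other. The columns of that table name the group but not the replicate, so the arrays are called by the table's own labels. Tollip had intensities of 22.5, 27.4, 14.7 and 18.5 on control arrays C2, C3, C4 and C6, and 44.8, 46.0, 55.6 and 22.2 on JFLX arrays JF1, JF3, JF4 and JF5. On this scale JF5 lay among the control arrays, so the separation of the Tollip groups holds after scaling between arrays and not before. JF5 gave the lowest JFLX intensity for 7 of the 8 genes and for 548 of the 582 listed probes, 94.2%, with a median over the listed probes of 32.5 against 57.3, 58.0 and 63.5 on the other JFLX arrays.

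Gimap5 had intensities of 205, 318, 239 and 276 on the control arrays and 193, 220, 198 and 116 on the JFLX arrays, with JF3 above C2. Casp4 ranged from 39.0 to 82.0 in control and from 40.2 to 118 in JFLX, and Cd52 from 13.3 to 27.9 and from 18.3 to 29.5. In all 3 genes the intensities of the groups overlapped, as did their deposited values.

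Rel had intensities of 14.9, 19.7, 11.6 and 7.54 on the control arrays and 4.95, 6.29, 7.75 and 3.27 on the JFLX arrays. Ppbp had 19.9, 18.5, 12.2 and 13.3 in control and 10.0, 8.27, 10.0 and 6.28 in JFLX, where every JFLX array was below every control array. The same held for Cxcr2, with 5.81, 8.29, 4.94 and 5.44 in control and 4.05, 2.53, 4.23 and 3.24 in JFLX, although its deposited values overlapped. Ripk4 had 6.06, 11.9, 6.82 and 9.45 in control and 3.55, 2.93, 6.17 and 2.07 in JFLX, with JF4 above C2. Intensities of the groups did not overlap for 2 of the 8 genes, Ppbp and Cxcr2, and for 25.9% of all listed probes.

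The lowest signals among probes counted as detected were higher on the JFLX arrays. Over the listed probes with 4 of 4 arrays detected in a group, the lowest intensity was 5.40, 6.97, 5.11 and 6.57 on the 4 control arrays and 15.5, 16.0, 19.1 and 9.06 on the 4 JFLX arrays. These lowest values are taken over lists that were filtered on detection and are not the scanner's own limits. The JFLX intensities of Rel, Ppbp, Cxcr2 and Ripk4 lay under the lowest detected intensity on all 4 JFLX arrays. The control intensities of Cxcr2, from 4.94 to 8.29, lay under every one of those JFLX limits, and those of Ripk4, from 6.06 to 11.9, lay under 3 of them. The highest control intensities of Rel, 19.7, and Ppbp, 19.9, lay above all 4. Cxcr2 also lay under the lowest value of the control array itself on C4 (4.94 against 5.11) and C6 (5.44 against 6.57). It was nevertheless counted as detected on 3 of the 4 control arrays. A signal counted as detected can therefore lie under these lowest values, and the bounds and ticks drawn from them are not limits of detection. The part of the higher JFLX values in the counts of detected arrays was not tested.

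**Figure D2:**
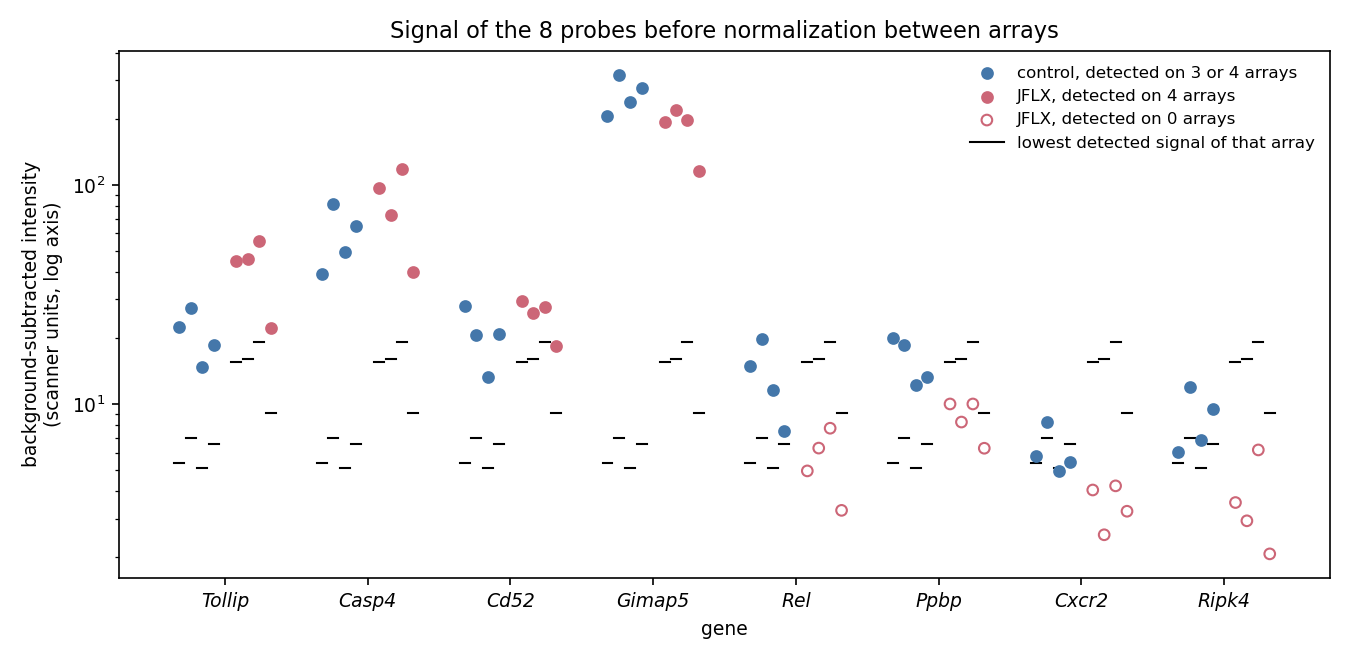
Background-subtracted intensity (vertical log axis, scanner units) of the 8 probes on control arrays (blue) and JFLX arrays (red). Black ticks mark the lowest signal of each array among listed probes detected on all 4 arrays of its group. The open circles of Rel, Ppbp, Cxcr2 and Ripk4 lie under the ticks of all 4 JFLX arrays, which stand at 9.06 to 19.1 against 5.11 to 6.97 for the control arrays.

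A limma fit over all 15207 probes gave an adjusted p under 0.05 (Benjamini-Hochberg, two-sided) for 3 of the 8 genes, Tollip, Ppbp and Ripk4. Over the array, 6.25% of probes passed, 5.89% with higher and 0.355% with lower JFLX values, and 26.5% of the listed probes passed. The 8 genes were selected on this contrast, so nothing is read from their count. The limma adjusted p was 0.00264 for Tollip, 0.0370 for Ppbp and 0.0394 for Ripk4, followed by 0.0558 for Rel. It was 0.238 for Cxcr2, 0.241 for Cd52, 0.243 for Casp4 and 0.249 for Gimap5. Groups did not overlap for 4 of the 8 genes, Tollip, Rel, Ppbp and Ripk4, 1 higher and 3 lower. Groups were apart for 10.0% of all probes in the higher and 2.95% in the lower direction, and for 71.6% of the listed probes, and again nothing is read from the count.

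Tollip kept its call whichever array was left out, with a limma adjusted p from 0.00625 to 0.0116, whereas Ppbp and Ripk4 lost theirs without any 1 of 6 arrays. Ppbp kept its call without control replicate 4 (0.0444) or JFLX replicate 4 (0.0437). It lost the call without control replicate 1 (0.0612), 2 (0.0920) or 3 (0.0595), or JFLX replicate 1 (0.0877), 2 (0.10) or 3 (0.101). Ripk4 kept its call without control replicate 1 (0.0306) or JFLX replicate 3 (0.0140). It lost the call without control replicate 2 (0.0975), 3 (0.0899) or 4 (0.115), or JFLX replicate 1 (0.108), 2 (0.0968) or 4 (0.0992); all values are limma adjusted p. Over the 8 fits with 1 array left out, the measured difference ran from -0.58 to -0.77 for Ppbp, against -0.70 on all arrays, and from -0.98 to -1.29 for Ripk4, against -1.10, on the log2 scale and with JFLX signals not well above background. Rel passed once control replicate 4, its lowest control array, was left out (limma adjusted p = 0.00542). Quantile normalization of the arrays ended the call of all 3 genes, with an adjusted p of 0.115 for Tollip, 0.393 for Ppbp and 0.118 for Ripk4 in limma, and 0 of all 15207 probes passed with it, against 1298 at an unadjusted limma p under 0.05. The difference then was 0.82 for Tollip against 1.16 in the main fit, and the measured difference was -0.68 for Ppbp and -1.05 for Ripk4, on the log2 scale. Moderation with trend and robust left Tollip alone of the 8 genes past the threshold. All 3 calls were also ended by leaving out the 1117 unlisted probes that passed the authors' limits on fold and p, which changes no difference, with a limma adjusted p of 0.0654 for Tollip, 0.228 for Ppbp and 0.237 for Ripk4.

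**Figure D3:**
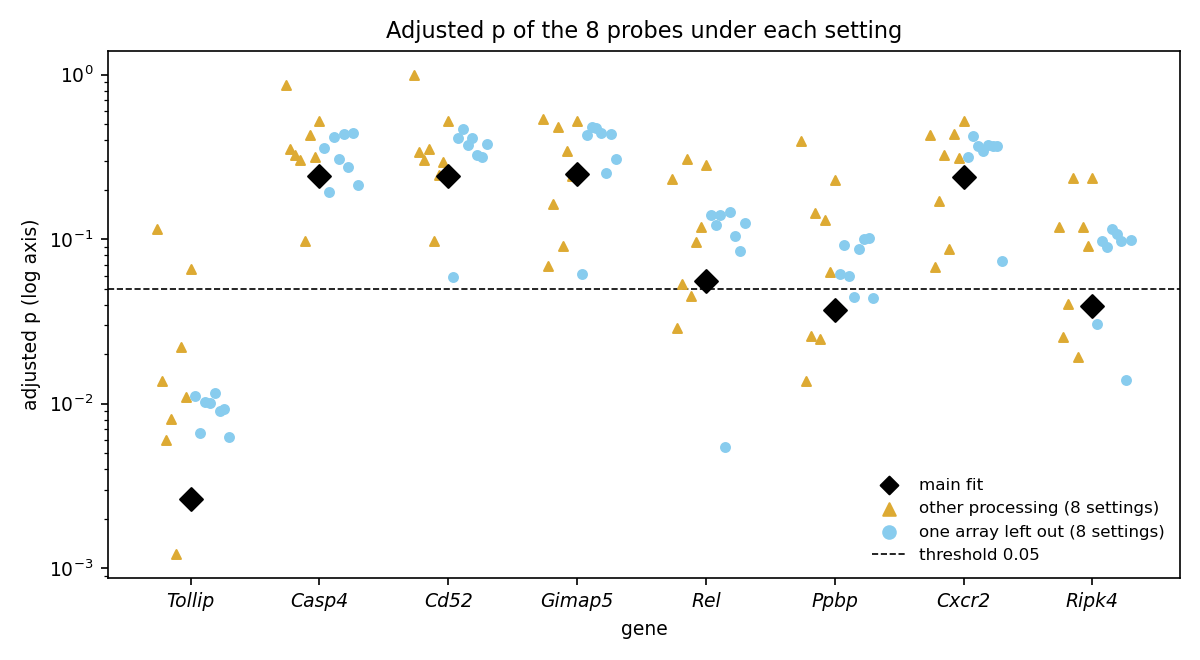
Adjusted p (vertical log axis) of the 8 genes in the main fit (black diamonds), under 8 other ways of processing (yellow triangles) and with 1 of the 8 arrays left out (blue circles), with the threshold of 0.05 as a dashed line. Tollip lies under the line in 14 of the 16 other settings, Ppbp and Ripk4 in 5 each and Rel in 3, and Casp4, Cd52, Gimap5 and Cxcr2 in 0.

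The spread within groups placed the 8 genes among the noisier of the listed probes in some cases. The residual SD was 0.18 for Gimap5, 0.21 for Tollip and Ppbp, 0.28 for Cd52, 0.35 for Casp4 and Cxcr2, 0.38 for Ripk4 and 0.40 for Rel, all on the log2 scale. The median over the higher list was 0.21, over the lower list 0.26 and over all probes 0.27. The median difference of the 3 higher genes was 0.61 against 0.57 for the higher list, and the median over all probes was 0.04. Among the control arrays, replicate 2 had the highest value for 6 of the 8 genes, higher and lower genes alike. The SD of all probes ran from 0.35 to 0.52 over the control arrays, with control replicate 2 the highest, and from 0.64 to 0.74 over the JFLX arrays. These ranges cannot be set against each other as noise. Each probe is centred on its control median, and the SD of a JFLX array also holds the difference between the groups.

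**Figure D4:**
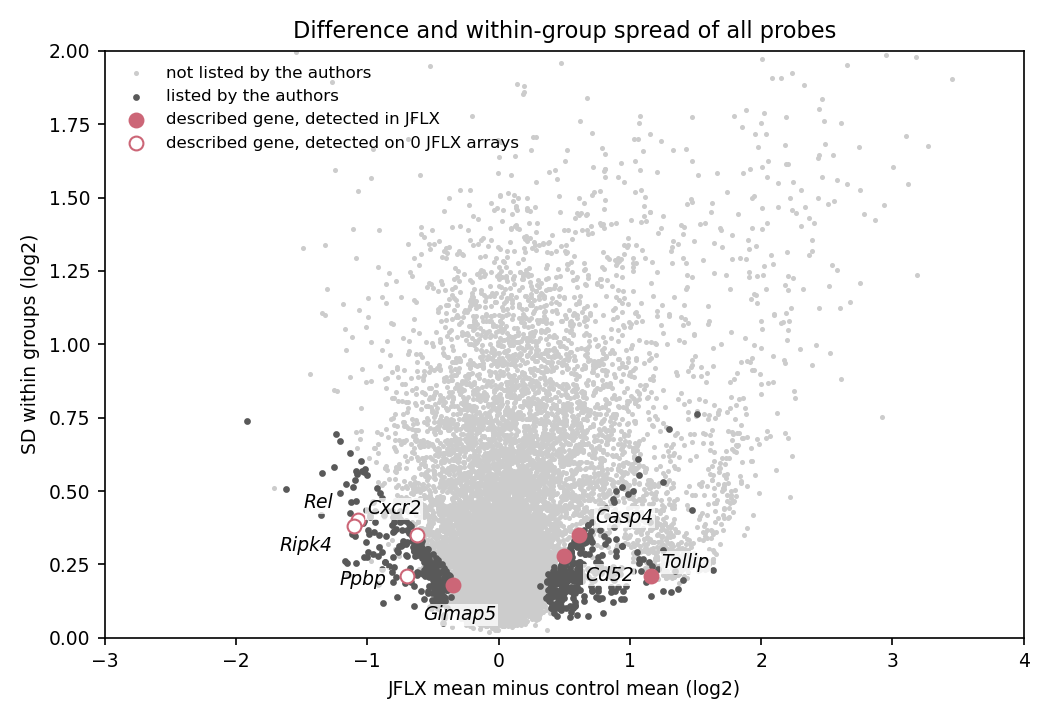
Difference between group means (horizontal axis, log2) and SD within groups (vertical axis, log2) for the probes of the array, with probes outside the authors' lists in light grey, listed probes in dark grey and the 8 genes in red. Tollip lies at 1.16, Casp4 at 0.61, Cd52 at 0.50 and Gimap5 at -0.35, open circles mark genes detected on 0 JFLX arrays, whose horizontal position is not a measured fold, and 19 probes lie outside the axes.

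The listed probe with the pattern most like each gene was found by the root mean square difference over the 8 arrays, on the log2 scale. Tollip was nearest to Plekhb2, a protein of recycling endosomes, at 0.082, and Gimap5 to the GTP-binding protein gene Gtpbp2 at 0.072. Cd52 was nearest to the chondroitin sulfotransferase gene Chst11 at 0.137 and Casp4 to the phosphatase gene Phospho2 at 0.200. Ppbp was nearest to Cul2, a scaffold of ubiquitin ligases, at 0.142, and Ripk4 to the metalloprotease gene Adamts8 at 0.201. Cxcr2 was nearest to the hydroxylase gene Jmjd6 at 0.209 and Rel to the transcription factor gene Bhlha15 at 0.299. Of these, Cul2, Adamts8 and Bhlha15 were also detected on 0 JFLX arrays. None of the nearest genes stands in the immune gene lists used here.

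Other genes of the same pathways were sought in 11 lists that hold 256 genes, of which 12 are listed by the authors: the 8 genes above, Tab2, Ccr2, Cd69 and Il17ra. The authors list 3.83% of all probes on the array. The gene lists were drawn up with the 8 genes in view and include them, so nothing is read from how many of their genes are listed. Only listed probes carry names here, so other members of the pathways were not analysed. Of 29 genes of Toll-like and interleukin-1 receptor signalling, 2 are listed and 1, Tollip, passed. Tab2, an adaptor that links this pathway to the kinase Map3k7, was the other. Its log2 values were -0.02, 0.11, 0.02 and -0.62 in control and 0.25, 1.13, 0.64 and 1.33 in JFLX. The Tab2 groups did not overlap, with a difference of 0.97 ± 0.27 (SE, n = 4) and a limma adjusted p of 0.0959, which was 0.0419 without JFLX replicate 1. Tab2 passed in no other setting. There its adjusted p ran from 0.107 with centring on the median to 0.369 without the unlisted probes, both in limma.

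Of 42 chemokines and chemokine receptors, 3 are listed, Ppbp, Cxcr2 and Ccr2, all in the lower list, and only Ppbp passed. Ccr2, the receptor that brings monocytes into tissue, had log2 values of -0.14, 0.14, 0.92 and -0.35 in control and -0.46, -0.91, -0.84 and -0.71 in JFLX, groups that did not overlap (limma adjusted p = 0.137). Of 34 lymphocyte surface and signalling genes, 2 are listed. Cd52 had higher values, whereas Cd69, an early activation marker of lymphocytes, had log2 values of 0.23, -0.35, 0.11 and -0.11 in control and -0.69, -0.68, -1.02 and -0.99 in JFLX. Cd69 passed the test in the lower direction (limma adjusted p = 0.0206). Its call was lost without control replicate 1 (0.0526), 3 (0.0694) or 4 (0.0507), or JFLX replicate 3 (0.0650) or 4 (0.0567). It was also lost with quantile normalization (0.0971), trend and robust moderation (0.184) and the removal of the unlisted probes named above (0.177), all limma adjusted p. Of 37 cytokines and their receptors, 1 is listed, the interleukin receptor gene Il17ra, with -0.13, 0.11, 0.34 and -0.11 in control and -0.18, -0.42, -1.01 and -0.96 in JFLX (log2 values, limma adjusted p = 0.138). Ccr2, Cd69 and Il17ra were each detected on 4 control and 0 JFLX arrays, so no fold is given for them.

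Rel was the single listed gene of 20 in the NF-kappa-B list, Casp4 of 15 in the inflammasome list, Ripk4 of 14 receptor-interacting kinase and cell death genes and Gimap5 of 7 genes of its family. Lists of complement, interferon response and antigen presentation had 0 listed genes of 19, 27 and 15. Of the 8 listed genes with lower values over the 11 lists, 7 were detected on 0 JFLX arrays, against the 45.0% of the whole lower list given above, and Gimap5 was detected on all 4. Most of these lower genes are the described ones, around which the lists were drawn up, so nothing is read from their detection either.

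Markers of the cells from which these transcripts could come were mostly outside the named probes. The lists of microglia, T cells, B cells, neutrophils, platelets, erythrocytes and mast cells had 0 listed genes. Ccr2 was the single listed marker of 7 for monocytes and macrophages. The endothelial marker Pecam1, 1 of 7, had log2 values of 0.06, -0.06, 0.09 and -0.79 in control and 0.00, 0.57, 0.65 and 0.79 in JFLX (limma adjusted p = 0.227). The Pecam1 groups overlapped, and Pecam1 was detected on 4 control and 3 JFLX arrays. Of 8 neuronal markers, 1 is listed, the kinase gene Camk2a, at -0.04, 0.28, 0.00 and 0.00 in control and 0.76, 0.88, 0.76 and 0.09 in JFLX (log2 values, limma adjusted p = 0.172, 0.00981 without JFLX replicate 4 and 0.0162 with array weights), and it was detected on all 8 arrays. The Camk2a groups also overlapped. Camk2a passed in no other setting, with a limma adjusted p of 0.823 under quantile normalization and 0.342 with centring on the 75th percentile. The part of the cell makeup in the differences of the 8 genes was not tested.

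Because Rel is itself an NF-kappa-B subunit, the 250 bases before the annotated start were searched for an NF-kappa-B type motif, GGGANNNNCC on either strand, in the 6 genes that the RefSeq table of promoters (build GRCr8) holds. It was found before Rel and Cd52, 2 of the 6 genes, and in 16.4% of the 33469 promoters of the table. These genes lie on opposite sides of the comparison, with lower values for Rel and higher values for Cd52. Neither passed in the main fit (limma adjusted p = 0.0558 for Rel and 0.241 for Cd52). Rel was detected on 0 JFLX arrays and the Cd52 groups overlapped, so nothing is read from these directions. The sequences are shown because they hold the matches, which are in capitals.
Rel, chr14:101921939-101922188, minus strand: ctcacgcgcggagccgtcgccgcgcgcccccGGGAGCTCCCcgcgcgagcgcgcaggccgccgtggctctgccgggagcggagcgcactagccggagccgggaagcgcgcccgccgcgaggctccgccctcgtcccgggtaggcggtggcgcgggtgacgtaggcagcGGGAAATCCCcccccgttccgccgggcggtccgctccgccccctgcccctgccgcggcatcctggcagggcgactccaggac
Cd52, chr5:151605097-151605346, minus strand: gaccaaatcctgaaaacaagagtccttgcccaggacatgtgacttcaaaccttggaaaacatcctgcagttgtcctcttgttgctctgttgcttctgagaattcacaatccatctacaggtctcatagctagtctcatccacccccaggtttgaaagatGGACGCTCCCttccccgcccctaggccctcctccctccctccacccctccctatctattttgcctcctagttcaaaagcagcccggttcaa

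Both matches before Rel read the same motif on either strand. The match before Cd52 reads it only in the reverse complement of the printed sequence. The Rel sequence holds 80.4% G and C and the Cd52 sequence 51.2%. A second motif, GGGCGG on either strand, also occurred before Rel and Cd52 and in 30.5% of all promoters, without overlapping the first. TATAAA was found before Ppbp alone of the 6 genes, against 12.9% of all promoters, and CCGGAA before Tollip alone, against 12.6%. A match describes these letters and is not a site of binding.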

How the data were processed

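The authors deposited log2 values for 15207 probes on 8 arrays, in which the control median is 0 at each probe, and 0 values were missing. Their lists give background-subtracted intensity per array, per the file headers, with the p-value and the counts of detected arrays in the authors' table. The sources used here name neither the software nor the background method nor the normalization between arrays. At the listed probes, JFLX minus control in log2 intensity differed from JFLX minus control in the deposited log2 values by a constant -0.18.

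Per the read-me sheet, the authors listed a probe with a JFLX mean of at least 0.4 or at most -0.4, a p of at most 0.05 and the detected flag on at least 3 or 4 arrays, counted in JFLX for higher and in control for lower probes. Of the 8 genes, the JFLX mean nearest to that limit was -0.45 for Gimap5 and the p nearest was 0.0496 for Casp4. The nearest unlisted and unnamed probe had a JFLX mean of 0.3995 in size. Another 16 per-array columns in each list were left aside.

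The groups were compared in R 4.3.3 with limma 3.58.1 (lmFit, eBayes without trend), Benjamini-Hochberg over all probes, threshold 0.05, and the fit was tested on simulated data. Tables and plots used Python 3.11.15, pandas 2.3.3 and matplotlib 3.10.9. Listed probes were named through gene IDs in RefSeq (551 of 582 matched). A probe detected on 0 JFLX arrays has a bound: its mean log2 control signal against the mean over JFLX arrays of its own signal, raised to the lowest detected one where it lies under it. The lowest detected signal of an array was taken over listed probes detected on all 4 arrays of its group. The constant of -0.18 is then added, which puts the bound on the scale of the deposited values. For arrays, their number limits the precision.

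The 8 genes, the gene lists and the marker lists were chosen with earlier results of these data known. The rule for named genes takes the 8 genes, the listed gene nearest to each, and all listed members of the lists. Alternatives were centring on the 75th percentile or the median, quantile normalization, trend and robust, array weights, an equal-variance t-test, a replicate block, each array left out, a detection filter, adjustment without the 1117 unlisted probes that passed both of the authors' limits on fold and p, and log2 intensity.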

Additional observations from a re-analysis of the deposited data

Results flagged for a closer look

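Of 16 groups of 4 values tested for a value that stands apart, 1 was found, and chance gives about 1 in 20. Control replicate 1 was the lowest control array for Gimap5, at a log2 value of -0.43, with a gap to the next array of 0.908 of the group's range, above Dixon's critical value for 4 values.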

How the results depend on the processing

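No difference of the 8 genes changed direction under any alternative, but trend and robust, the replicate block, the equal-variance t-test and the removal of unlisted probes leave each difference as it is. Centring on the 75th percentile or the median moved the median of all probes by -0.19 or -0.05. Of 136 single values, 108 stayed called or uncalled or moved by less than the spread, 24 lost the call, 3 gained it and 1 moved. The value that moved was the Gimap5 difference, which was -0.54 on log2 intensity. Log2 intensity shifted the differences of all 8 genes by the same constant of -0.18. With centring on the 75th percentile the Gimap5 difference was -0.55, counted as unchanged because it stayed uncalled. Most of the 108 had no call to keep. All 24 lost calls were of Tollip, Ppbp and Ripk4, which kept theirs in 14, 5 and 5 of 16 other settings. Of the 8 genes 3 passed in the main fit, against 0 with quantile normalization, 1 with trend and robust, 1 with the replicate block, 1 with the equal-variance t-test and 0 without the unlisted probes. It was 3 with centring on the median and 4 each with centring on the 75th percentile and with array weights. Among probes with at least 3 detected arrays in each group it was 1, a filter that takes out Ppbp and Ripk4 before any test. Leaving out 1 array gave 1 to 3. Of all probes 950 passed (896 higher, 54 lower), against 0 (0 and 0) with quantile normalization, with 1298 at an unadjusted limma p under 0.05, and 6 (6 and 0) without the unlisted probes. Taking out probes with small p-values pushes up the adjusted p of the rest. Lower probes numbered 221 with centring on the 75th percentile (682 higher), 113 with array weights, 21 with the replicate block, 0 with trend and robust, and 19 to 62 when 1 array was left out. Apart from this, the cause was not tested. Deviations of same-numbered arrays correlated at -0.044, 0.395, 0.115 and -0.277 over probes for numbers 1 to 4. Both arrays of number 2 correlated best with their own number. So did JFLX replicate 3, but not control replicate 3 or the arrays of numbers 1 and 4. These correlations cannot decide whether the numbers mark pairs. The replicate block also ended the call of Cd69 (limma adjusted p = 0.0835). Signals near background limit Rel, Ppbp, Cxcr2 and Ripk4.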
